A study of Mus musculus with 11 samples.

Results

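The channels described here are 9 mouse genes whose products set the resting potential, the pause after a spike and the rhythm of neurons. They are the two-pore leak channels Kcnk1, Kcnk2, Kcnk3, Kcnk9 and Kcnk10, the calcium-activated potassium channels Kcnn2 and Kcnma1, and the pacemaker channels Hcn2 and Hcn4. They were chosen by name, as the rows of these 9 symbols among the 47069 genes of the count tables, and all 9 were among the 18188 genes with enough counts to be tested. The 11 libraries are RNA-seq of dissociated retinas of C57BL/6 mice: 2 labelled wild type and 3 labelled Brn3b-Kir2.1 at postnatal day 4 (P4), and 3 of each genotype at postnatal day 8 (P8). The Brn3b-Kir2.1 animals express human Kir2.1 joined to eYFP from a transgene; Kir2.1 is an inward rectifier that holds cells near the resting potential. It is driven by the CAG promoter behind a floxed STOP cassette and is released by Brn3b-cre, a driver for the ganglion cells of the retina, while the libraries hold all the cells of the tissue. By its title the study asked what correlated activity of the young retina does for the wiring of visual axons.

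The labels disagree on 3 points that bear on every value. The protocol gives P11 as the later age where the sample fields give P8. The controls are wild type by the genotype field and Brn3b-cre mice by the protocol. The source is named as ganglion cells, while the tissue field and the protocol describe retina with no sorting step, and markers of rods, bipolar, amacrine and dividing cells were all present. The sample fields are followed here. Nothing in the labels says whether replicates came from separate animals or litters, so p-values measure the spread between these libraries, which may be technical. Genes took 9362215 to 12478838 counts per library. Mouse Kcnj2, which encodes Kir2.1, was at 5.81 to 10.6 CPM (counts scaled to library size) in wild type and 2.46 to 6.42 in Kir2.1 libraries at P4, and at 3.74 to 17.2 and 4.91 to 17.1 CPM at P8. The transgene is human, and how its reads were counted is not given, so these levels do not check the genotype labels. On the first principal component of all genes (41.6% of the variance), wild-type P4 replicate 2 lay at -16.4, between the other P4 libraries (-74.6 to -55.4) and those of P8 (37.8 to 54.0). On the second, the 3 wild-type P8 libraries spread from 74.6 in replicate 1 to -39.7 in replicate 3. Wild-type P4 replicate 2 and wild-type P8 replicate 3 were left out singly and together as alternatives. Kir2.1 P8 replicate 2 had the fewest counts and a count in 31325 genes, against 22609 to 24591 in the other libraries.

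Two-pore channels pass potassium at rest and so pull the membrane toward the potassium equilibrium potential. Calcium-activated channels open on the calcium that enters during a spike or a burst and produce the afterhyperpolarization, the pause that follows. Pacemaker channels open on hyperpolarization and carry a depolarizing cation current, which returns the cell to threshold. In the first postnatal weeks the retina generates spontaneous waves, first through starburst amacrine cells and later through bipolar cells, and the slow afterhyperpolarization of starburst cells spaces successive waves.

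The sequences upstream of the leak channels Kcnk1, Kcnk2 and Kcnk10 are shown because they share a run of letters, given below. Of these genes, Kcnk1 and Kcnk10 fell with age. Upstream windows from RefSeq (GRCm38.p6) were available here for 6 of the 9 genes: Kcnk1, Kcnk2, Kcnk10, Kcnma1, Hcn2 and Hcn4. The 250 bases before their starts held GC at 44.4% for Kcnk1, 42.4% for Kcnk2, 50% for Kcnk10, 79.2% for Kcnma1, 70.4% for Hcn2 and 71.2% for Hcn4, beside a median of 52.4% over all 32851 windows of that length. All 250 bases of the Kcnma1 window and 97 of those of Kcnk10 lie in annotated exons, so the Kcnma1 values are not those of sequence outside transcripts. Both strands were searched for short promoter motifs. The letters TATAAA were in 0 of the 6 windows and in 12.4% of all windows. The same count of 0 was found for TAATCC, which was in 6.25% of all windows, and for the letters TGACG, which were in 17.8%. The GC box GGGCGG was in 4 (Kcnk10, Kcnma1, Hcn2 and Hcn4) and in 32.7% of all windows. In Kcnk10 it was not within the 153 bases outside annotated exons. The longest run of letters that at least 3 of the 6 windows shared was TTTAATCAG (CTGATTAAA on the other strand), which holds the first letters of TAATCC but none of the 4 motifs whole. It was in Kcnk1, Kcnk2 and Kcnk10 on the strand of the gene, beginning 43, 145 and 179 bases before the start, and in 92 of all windows (0.28%). The run was picked out after the windows had been seen and was not tested, and Kcnk2, which holds it, did not pass the test of age. It is in capitals in the following stretches, given 5′ to 3′ on the strand of the gene. They are chr8:125994852-125995101 on the plus strand for Kcnk1, chr1:189402274-189402523 on the minus strand for Kcnk2 and, for Kcnk10, the 153 bases of the window outside any annotated exon, chr12:98578311-98578463 on the minus strand.
Kcnk1: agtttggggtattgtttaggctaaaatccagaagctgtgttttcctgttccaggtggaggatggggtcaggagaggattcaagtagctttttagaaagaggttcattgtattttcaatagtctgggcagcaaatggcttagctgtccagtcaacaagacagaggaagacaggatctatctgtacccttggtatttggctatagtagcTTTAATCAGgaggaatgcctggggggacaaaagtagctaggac
Kcnk2: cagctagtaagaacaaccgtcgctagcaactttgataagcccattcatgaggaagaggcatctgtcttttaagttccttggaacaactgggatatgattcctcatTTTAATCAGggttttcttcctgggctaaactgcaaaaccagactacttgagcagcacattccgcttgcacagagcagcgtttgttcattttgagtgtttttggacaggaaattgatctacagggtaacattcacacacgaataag
Kcnk10: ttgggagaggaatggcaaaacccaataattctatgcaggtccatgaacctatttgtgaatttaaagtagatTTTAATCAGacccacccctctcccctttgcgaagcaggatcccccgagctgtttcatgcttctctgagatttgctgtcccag

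Compared per kilobase of merged exon (RPKM, CPM divided by exon length), the members' group means ran from 0.144 to 22.9, and the gene at the top of the order was not the same at both ages. At P4, Kcnk1 had the highest mean level in both genotypes (14.4 RPKM in wild type and 14.4 in Kir2.1), but in wild-type replicate 2 Kcnma1 was above it (14.1 against 13.7 RPKM). By group means in wild type, Kcnk1 was followed by Kcnma1 (9.24), Hcn4 (6.59), Kcnk2 (6.13), Hcn2 (5.11), Kcnn2 (4.59), Kcnk3 (3.34), Kcnk10 (1.61) and Kcnk9 (0.176). The place of Kcnma1 rests on replicate 2, since in replicate 1 it was at 4.37 RPKM, below Hcn4, Kcnk2 and Hcn2. In Kir2.1 at P4 the order after Kcnk1 was Hcn4 (5.51), Kcnma1 (5.36), Kcnn2 (3.91), Hcn2 (3.88), Kcnk2 (2.47), Kcnk3 (2.34), Kcnk10 (1.14) and Kcnk9 (0.167). At P8 Kcnma1 was first in every library of both genotypes, with means of 22.9 RPKM in wild type and 19.1 in Kir2.1, and its libraries did not overlap those of the next gene, Kcnk1 (10.2 and 8.51). After these, wild-type P8 gave Hcn4 (8.28), Kcnn2 (7.24), Kcnk3 (6.50), Hcn2 (6.45), Kcnk2 (4.95), Kcnk10 (0.377) and Kcnk9 (0.170). Kir2.1 P8 gave Kcnk3 (7.53), Hcn4 (5.92), Kcnn2 (5.65), Hcn2 (4.67), Kcnk2 (3.78), Kcnk10 (0.219) and Kcnk9 (0.144). Neighbours in the middle of each order mostly overlapped: from Kcnk1 down to Kcnk2 at P8, each gene's libraries overlapped those of the next in both genotypes. At P4 the exceptions among the upper 7 were Kcnk2 above Hcn2 in wild type, and Kcnk1 above Hcn4 and Kcnma1 above Kcnn2 in Kir2.1. Kcnk10 and Kcnk9 were the lowest genes in every group, and their libraries overlapped only in wild-type P8.

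**Figure D1:**
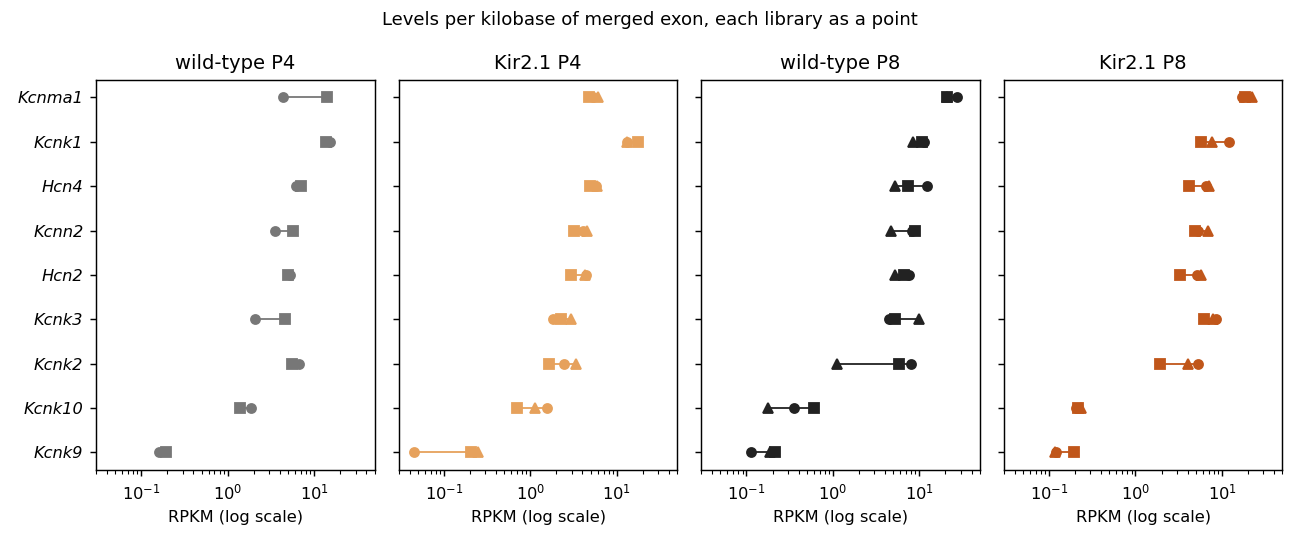
Levels of the 9 channel genes in RPKM (log scale, horizontal), with 1 panel per group and 1 point per library (circle, square and triangle for replicates 1, 2 and 3; the line joins the lowest and highest). Kcnk1 has the highest mean at P4 and Kcnma1 stands above all others at P8, while Kcnk9 and Kcnk10 are lowest in every group.

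The first comparison asked how these channels changed between P4 and P8, with the change averaged over the genotypes. Kcnma1, Kcnk3 and Kcnn2 rose and Kcnk10 and Kcnk1 fell, while Kcnk2, Kcnk9, Hcn2 and Hcn4 did not pass the test. These 5 of 9 calls (edgeR quasi-likelihood test, Benjamini-Hochberg adjusted p under 0.05 over all genes tested) stand beside 22.8% of all genes called, 10.7% higher and 12.1% lower. In 3 of 9 the P4 and P8 libraries did not overlap (Kcnma1 higher, Kcnk1 and Kcnk10 lower), beside 11.6% of all genes. The median log2 change over the 9 was 0.22, and 0.02 over all genes. Whether the change with age differed between the genotypes was tested by the interaction term, and edgeR called 0 of 9 and 0% of the 18188 genes, with 0 of 9 and 3.09% at unadjusted p under 0.05. DESeq2 and voom also called 0 genes there.

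Kcnma1 encodes the pore of the BK channel, which opens on calcium and depolarization together and ends the spike with a fast afterhyperpolarization (ENSMUSG00000063142, chr14:23289431-24014491, minus strand, GRCm38). Replicates 1 and 2 of wild-type P4 held 74.1 and 239.7 CPM, and the Kir2.1 P4 libraries held 88.9, 81.4 and 102.4 CPM. By P8 the level was 463, 351 and 354 CPM in wild type and 287, 312 and 374 CPM in Kir2.1. Every P8 library lay above every P4 library, and the P4 library nearest to them was wild-type replicate 2, with more than any other P4 library.
The averaged rise was 1.57 ± 0.24 on the log2 scale (SE; 2.98-fold, 95% interval 2.07 to 4.28; adjusted p = 0.000711). Within Kir2.1 it was 1.84 ± 0.32 (adjusted p = 0.00245). Within wild type the difference was 1.31 ± 0.36 and missed the threshold (adjusted p = 0.0624), while DESeq2 (0.00328) and voom (0.0218) called it. Without wild-type P4 replicate 2 it was 2.39 (adjusted p = 9.30e-05), and without wild-type P4 replicate 1 it was 0.70 (adjusted p = 0.302).

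Kcnk3 encodes TASK-1, a leak channel closed by extracellular acid (ENSMUSG00000049265, chr5:30588170-30625271, plus strand). It was at 8.21 and 18.4 CPM in wild-type P4 and at 7.35, 8.98 and 11.6 CPM in Kir2.1 P4. The wild-type P8 libraries held 17.6, 21.0 and 38.9 CPM and those of Kir2.1 P8 34.2, 24.6 and 31.0 CPM. The ages overlapped only because wild-type P4 replicate 2 exceeded wild-type P8 replicate 1.
The averaged rise was 1.32 ± 0.26 (2.499-fold, 1.69 to 3.70; adjusted p = 0.00325), with 1.68 ± 0.34 in Kir2.1 (adjusted p = 0.00619) and 0.96 ± 0.38 in wild type, which did not pass (adjusted p = 0.191). The wild-type value was 1.66 without wild-type P4 replicate 2 (adjusted p = 0.0523), 0.54 without wild-type P8 replicate 3 (0.413) and 1.23 without both, where it passed (0.0372). The antisense gene Gm9899 shares 5.76% of the Kcnk3 exon bases and had 34 to 132 counts per library, against 79 to 478 for Kcnk3. Whether the authors counted by strand is not given, so reads of this pair cannot be told apart there. The same holds for Kcnk2 and A430027H14Rik (12.2% of exon bases, 2 to 23 counts of the partner), Kcnn2 and A330093E20Rik (0 to 7 counts), and for Kcnk1 (8.01%) and Kcnma1 (5.98%), whose antisense partners are not rows of the count tables.

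Kcnk10 encodes TREK-2, a leak channel opened by stretch, heat and lipids (ENSMUSG00000033854, chr12:98429437-98578310, minus strand), and had the largest change of the 9. Its level was 16.1 and 12.2 CPM in wild-type P4 and 13.8, 6.14 and 9.97 CPM in Kir2.1 P4. It was 3.12, 5.27 and 1.55 CPM in wild-type P8, and 1.82, 1.88 and 2.05 CPM in Kir2.1 P8. All P8 libraries were below all P4 libraries in both genotypes, and the Kir2.1 P8 group had a mean ± SD of 1.92 ± 0.12 CPM.
It fell by 2.23 on the log2 scale (SE 0.31; to 0.213 of the P4 level, 0.134 to 0.339; adjusted p = 0.000343). It was called within Kir2.1 (-2.37 ± 0.43, adjusted p = 0.00326) and was the only member called within wild type (-2.09 ± 0.44, adjusted p = 0.0172). That makes 1 of 9 beside 4.39% of all genes in wild type, and 4 of 9 (Kcnk1, Kcnk3, Kcnk10 and Kcnma1) beside 16.7% in Kir2.1. The wild-type call was lost without wild-type P4 replicate 1 (-1.88, adjusted p = 0.223), with only the wild-type libraries in the fit (0.123) and with the replicate number as a block (0.0524).

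Kcnk1 encodes TWIK-1, a weakly conducting leak channel (ENSMUSG00000033998, chr8:125995170-126030685, plus strand). It was at 33.9 and 30.5 CPM in wild-type P4, and at 29.1, 38.8 and 28.9 CPM in Kir2.1 P4. It was at 25.0, 24.2 and 19.0 CPM in wild-type P8, and at 26.9, 12.9 and 17.2 CPM in Kir2.1 P8. The ages did not overlap, but the highest P8 and the lowest P4 libraries were close.
The averaged fall was 0.63 (-0.63 ± 0.18; 0.646 of the P4 level, 0.494 to 0.845; adjusted p = 0.0236). It was -0.76 ± 0.24 in Kir2.1 (adjusted p = 0.0494) and -0.50 ± 0.26 in wild type (adjusted p = 0.329). The averaged call was lost without wild-type P4 replicate 1 (adjusted p = 0.0984), Kir2.1 P4 replicate 2 (0.0559) or Kir2.1 P8 replicate 3 (0.0584), and without wild-type P4 replicate 2 and wild-type P8 replicate 3 together (0.0517). The call within Kir2.1 was lost without any of Kir2.1 P4 replicates 1, 2 and 3 or Kir2.1 P8 replicates 2 and 3 (adjusted p from 0.0767 to 0.163).

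Kcnn2 encodes SK2, a small-conductance channel gated by calcium through calmodulin and a source of the medium afterhyperpolarization (ENSMUSG00000054477, chromosome 18, 45268860 to 45686024, plus strand). It was at 26.2 and 42.4 CPM in wild-type P4, and at 30.04, 23.9 and 33.5 CPM in Kir2.1 P4. It was at 61.7, 65.7 and 34.8 CPM in wild-type P8, and at 38.9, 36.6 and 51.1 CPM in Kir2.1 P8. Wild-type P4 replicate 2 lay above 3 of the 6 P8 libraries, so the ages overlapped.
The averaged rise was 0.59 ± 0.19 (1.51-fold, 1.13 to 2.02, adjusted p = 0.0423), a call lost with the replicate number as a block. It did not pass within wild type (0.66 ± 0.29, adjusted p = 0.232) or within Kir2.1 (0.53 ± 0.25, adjusted p = 0.184). The wild-type value was 0.35 without wild-type P4 replicate 1 (adjusted p = 0.914) and 1.04 without wild-type P4 replicate 2 (adjusted p = 0.109), and without the latter and wild-type P8 replicate 3 both genotypes passed (1.28, adjusted p = 0.00809, and 0.54, adjusted p = 0.0374). The averaged call was kept without wild-type P4 replicate 2 (adjusted p = 0.0204) or wild-type P8 replicate 3 (0.00575), and lost when any of the other 9 libraries was left out (adjusted p from 0.050045 to 0.220).

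**Figure D2:**
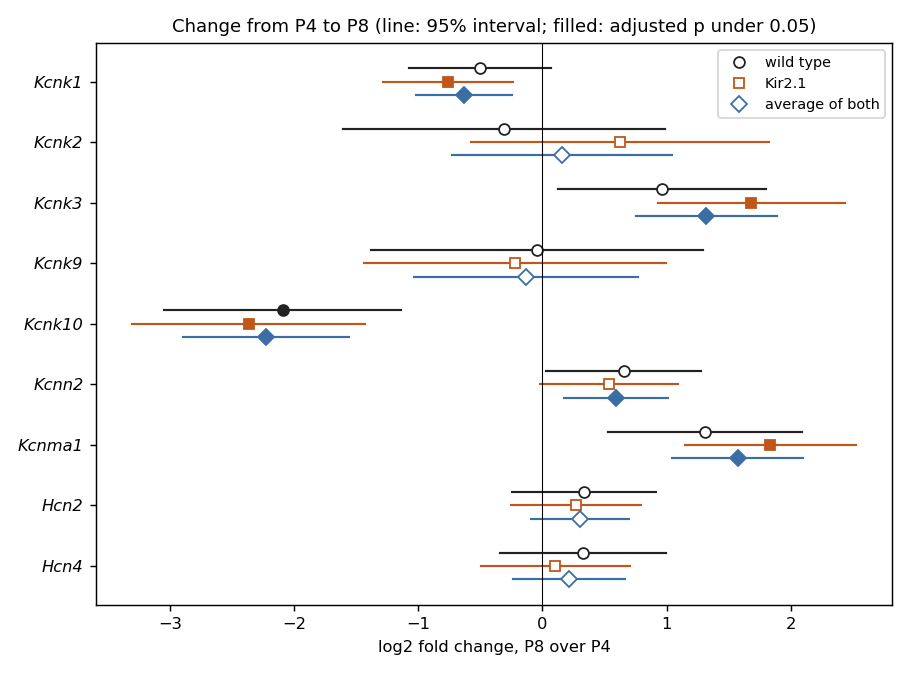
Log2 change from P4 to P8 for each channel gene in wild type (circles), in Kir2.1 (squares) and averaged (diamonds), with 95% intervals and filled symbols for adjusted p under 0.05. Kcnma1, Kcnk3 and Kcnn2 lie to the right and Kcnk10 and Kcnk1 to the left as averages, and Kcnk10 is the only one filled in wild type.

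The pacemaker members did not pass the test of age. Hcn2, a channel with strong cAMP gating (ENSMUSG00000020331, chr10:79716634-79736108, plus strand), was at 16.8 and 15.9 CPM in wild-type P4 and at 14.0, 9.36 and 13.8 CPM in Kir2.1 P4. It was at 24.1, 21.0 and 16.8 CPM in wild-type P8, and at 16.4, 10.3 and 18.0 CPM in Kir2.1 P8. Its averaged difference between ages was 0.30 ± 0.18 (95% interval -0.09 to 0.70, adjusted p = 0.259).
Hcn4, the slowest gating member of the family (ENSMUSG00000032338, chr9:58823412-58863175, plus strand), was at 37.4 and 43.2 CPM in wild-type P4 and at 35.1, 29.7 and 36.4 CPM in Kir2.1 P4. It was at 75.1, 44.8 and 32.1 CPM in wild-type P8 and at 39.5, 25.5 and 43.6 CPM in Kir2.1 P8. The averaged difference was 0.22 ± 0.21 (-0.23 to 0.67, adjusted p = 0.500), and the ages overlapped for both genes.

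Kcnk2 encodes TREK-1, the close relative of TREK-2 (ENSMUSG00000037624, chr1:189207930-189402273, minus strand), and varied widely between replicates. It was at 33.1 and 27.5 CPM in wild-type P4, and at 12.1, 8.06 and 16.4 CPM in Kir2.1 P4. It was at 39.4, 28.5 and 5.53 CPM in wild-type P8 and at 26.4, 9.60 and 20.1 CPM in Kir2.1 P8. Wild-type P8 held both the highest and the lowest library of all 11.
The averaged difference between ages was 0.16 ± 0.41 (-0.73 to 1.04, adjusted p = 0.827). Kcnk9, which encodes the acid-sensitive leak channel TASK-3 (ENSMUSG00000036760, chr15:72501089-72546340, minus strand), had 6 to 35 counts per library. Its group means were 2.17, 2.05, 2.096 and 1.77 CPM in wild-type P4, Kir2.1 P4, wild-type P8 and Kir2.1 P8. The interval of its averaged age difference ran from -1.04 to 0.77, about as wide as that of Kcnk2.

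**Figure D3:**
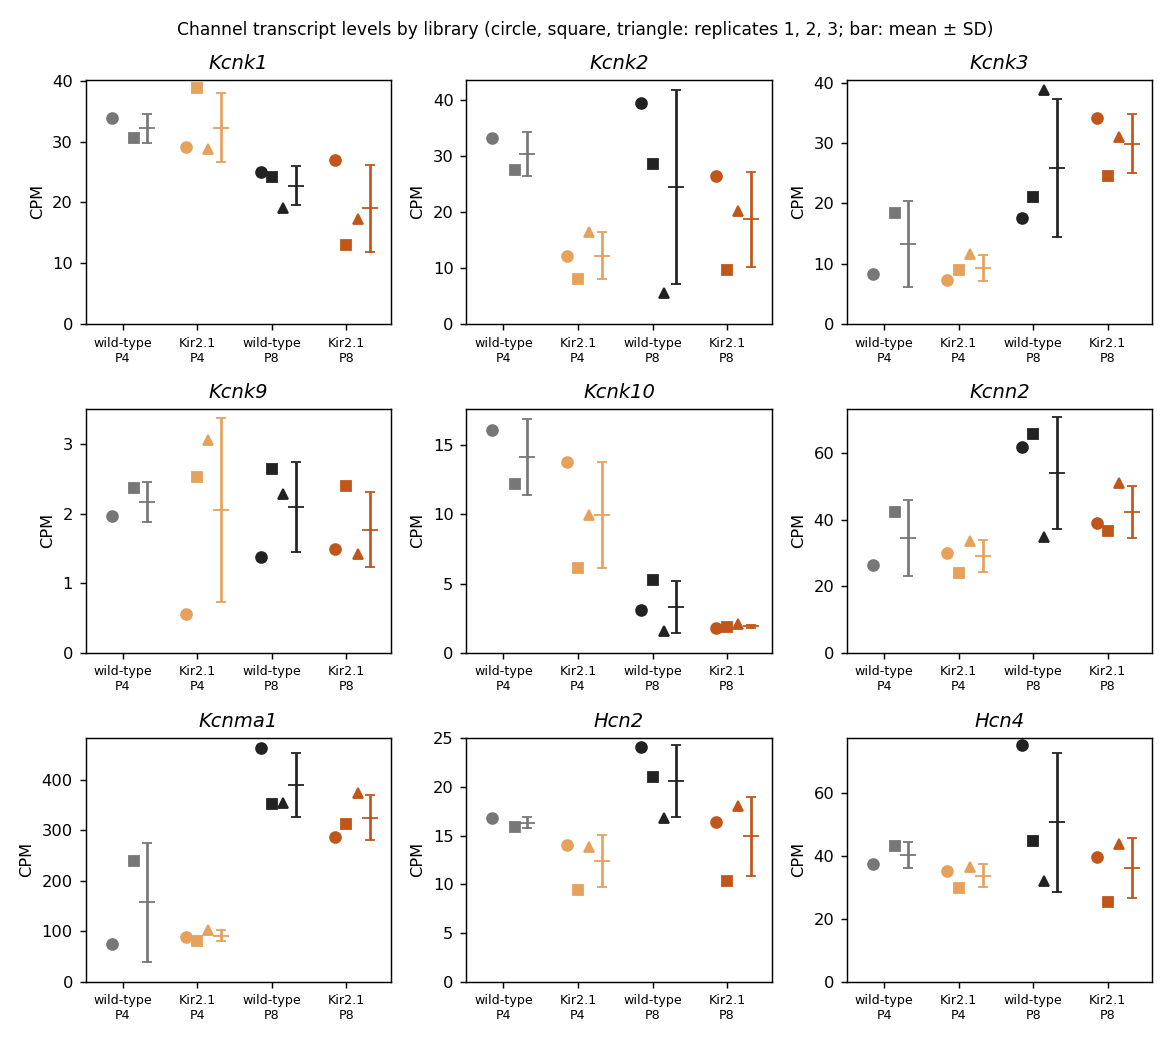
CPM of each channel gene in every library, with 1 panel per gene, and the mean ± SD of each group beside its points (2 libraries in wild-type P4, 3 in each other group). Kcnma1 is higher and Kcnk10 lower in all P8 libraries, and Kcnk2 in wild-type P8 runs from 39.4 to 5.53 CPM.

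The next comparison asked whether the channels differed between Kir2.1 and wild-type retinas of the same age. None passed the adjusted test at P4, at P8 or averaged over the ages, and neither did any of the 18188 genes in any of the 3 comparisons (0% called by edgeR). At unadjusted p under 0.05 the counts were 2 of 9 at P4 (7.22% of all genes), 0 of 9 at P8 (6.82%) and 2 of 9 averaged (11.7%). DESeq2 called 33 genes at P4, 3 at P8 and 86 averaged over the ages, 0 of them members, and voom called 0 genes in each. Values were nonetheless mostly lower in Kir2.1: 8 of 9 at P4 (median log2 difference -0.40), 8 of 9 at P8 (-0.36) and 9 of 9 averaged (-0.37), with medians of 0.01, 0.00 and 0.01 over all genes. Without wild-type P4 replicate 2 the P4 difference turned positive for Kcnk3 (0.19), Kcnk9 (0.07), Kcnn2 (0.15) and Kcnma1 (0.30) and negative for Kcnk1 (-0.07), which left 5 of 9 lower. For Kcnk3, Kcnn2 and Kcnma1 the lower value at P4 thus rests on 1 library, and Kcnk9 also turned positive without Kir2.1 P4 replicate 1 (0.37). The averaged count was 7 of 9 without wild-type P4 replicate 2, where Kcnk3 (0.20) and Kcnma1 (0.0161) were positive. Averaged, Kcnk3 was also positive without wild-type P8 replicate 3 (0.0624) and Kcnk9 without Kir2.1 P4 replicate 1 (0.0582). Amacrine markers were lower in Kir2.1 too, in 8 of 8 genes at P8 (median -0.59) and averaged (-0.42). So were ganglion cell markers, in 9 of 10 at P8 (-0.24) and 10 of 10 averaged (-0.78). The summed ganglion level at P8 overlapped, at 415 to 536 CPM in wild type and 419 to 502 CPM in Kir2.1. Higher at P8 were rod markers in 8 of 8 (0.90), bipolar markers in 8 of 8 (0.21) and microglia markers in 6 of 6 (0.42). Vascular (0.43), dividing-cell (0.38) and Mueller glia markers (0.19) were each higher in 5 of 6. No gene of these lists was called. Their part in the channel values was not tested.

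Kcnk2 had the largest difference at P4. Both wild-type libraries, at 33.1 and 27.5 CPM, were above all 3 Kir2.1 libraries, whose highest was 16.4 CPM. The difference was -1.31 ± 0.60 (0.402 of wild type, 95% interval 0.163 to 0.993; unadjusted p = 0.0486, adjusted p = 0.685 by edgeR). It remained negative without either of the wild-type libraries (-1.18 and -1.44). With no filter on low counts it was called (adjusted p = 2.44e-05), in a fit that called 339 of all genes instead of 0. Hcn2 (-0.40 ± 0.27, adjusted p = 0.755) and Hcn4 (-0.26 ± 0.31, adjusted p = 0.862) also had P4 groups that did not overlap, lower in Kir2.1. That is 3 of 9, beside 26.7% of all genes with no overlap and 14.4% with no overlap and lower.
Kcnma1 at P4 was -0.79 ± 0.34 (unadjusted p = 0.0395, adjusted p = 0.677), but its groups overlapped, since wild-type replicate 1 (74.1 CPM) was below every Kir2.1 library and replicate 2 (239.7 CPM) above them all. Leaving out replicate 1 gave -1.40 (adjusted p = 0.0403), and leaving out replicate 2 gave 0.30. With no filter on low counts it was called (-0.79, adjusted p = 6.34e-05), among the same 339 genes.

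At P8 the largest difference was that of Kcnk10, at -0.78 ± 0.44 (-1.73 to 0.17, adjusted p = 0.699), followed by Hcn4 (-0.48 ± 0.27) and Hcn2 (-0.46 ± 0.24). Kcnk10 was at -0.27 without wild-type P8 replicate 2, Hcn4 at -0.0851 without wild-type P8 replicate 1 and -0.72 without replicate 3, and Hcn2 at -0.26 without Kir2.1 P8 replicate 2. The P8 groups overlapped for all 9 members (0 of 9 without overlap, beside 10.6% of all genes). Kcnk3 was the 1 member with a higher value (0.21 ± 0.33). The widest intervals were those of Kcnk9 (-0.25, with -1.47 to 0.97) and Kcnk2 (-0.38, with -1.56 to 0.80). For Kcnk2, leaving out wild-type P8 replicate 3 gave -0.85 while leaving out replicate 1 turned it to 0.14. Averaged over the ages, Hcn2 (-0.43 ± 0.18, unadjusted p = 0.0329, adjusted p = 0.403) and Kcnma1 (-0.52 ± 0.23, unadjusted p = 0.0413, adjusted p = 0.412) had the smallest p-values. Without wild-type P4 replicate 2 the averaged Kcnma1 value was 0.0161, and without it and wild-type P8 replicate 3 it was -0.0173. Without wild-type P8 replicate 3, Kcnk2 was called in the averaged comparison (-1.08, adjusted p = 0.0445), with 609 of all genes. With no filter on low counts, Kcnk2 (adjusted p = 5.21e-05) and Kcnma1 (adjusted p = 5.25e-05) were called in the averaged comparison, with 901 of all genes.

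In the authors' deposited table for P4, 314 genes passed their adjusted p of 0.05 (2.27%), and Kcnma1 was the 1 member among them (log2 fold change -0.94, standard error 0.25, adjusted p = 0.0161). The authors' deposited table for P4 gave Kcnk2 as -0.88 (adjusted p = 0.253) and Kcnk3 as -0.84 (adjusted p = 0.278). In the authors' deposited table for P8, 974 genes passed (7.27%) and no member did. Closest in the authors' deposited table for P8 were Kcnn2 (-0.56, adjusted p = 0.0754), Kcnk3 (0.69, adjusted p = 0.0795) and Hcn4 (-0.72, adjusted p = 0.0795). The authors' deposited tables gave all 9 members the same sign as the edgeR fit at each age, and which libraries the authors used is not stated. At P8 the values in the authors' deposited table for Kcnk2 (-0.86), Kcnk3 (0.69) and Hcn4 (-0.72) were nearer to the edgeR values without wild-type P8 replicate 3 (-0.85, 0.63 and -0.72) than to those with it (-0.38, 0.21 and -0.48). At P4 the authors' deposited values for Kcnk2 (-0.88) and Kcnk1 (0.28) lay outside the edgeR ranges with 1 library left out. Those ranges were -1.59 to -1.08 and -0.14 to 0.08. The reason for these differences was not tested.

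**Figure D4:**
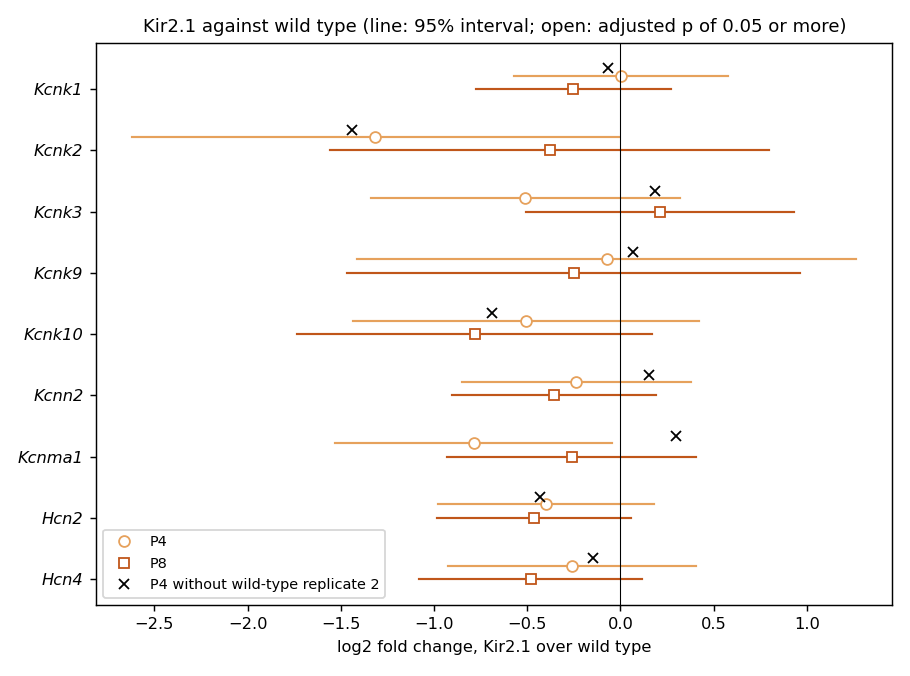
Log2 difference of Kir2.1 over wild type for each channel gene at P4 (circles) and P8 (squares), with 95% intervals, and at P4 without wild-type replicate 2 (crosses). All symbols are open because no adjusted p was under 0.05, and the cross for Kcnma1 lies at 0.30, on the other side of 0 from the circle at -0.79.

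Several members moved with markers of retinal cell types in some groups and not in others, and in bulk tissue fewer cells of a type and less RNA per cell cannot be told apart. The 3 wild-type P8 libraries show this within 1 group. In replicates 1, 2 and 3, the summed level of 8 amacrine markers was 3200, 2200 and 1135 CPM, and that of 8 rod markers 588, 2334 and 5319 CPM. In the same libraries Kcnk2 was at 39.4, 28.5 and 5.53 CPM, Hcn4 at 75.1, 44.8 and 32.1 CPM, and Hcn2 at 24.1, 21.0 and 16.8 CPM, each highest where amacrine markers were highest, while Kcnn2 was highest in replicate 2. In wild-type P4 the amacrine sum was 1638 and 2123 CPM, and there Kcnk2 (33.1 and 27.5 CPM) and Hcn2 (16.8 and 15.9 CPM) were lower where it was higher. In wild-type P8 Kcnk3, at 17.6, 21.0 and 38.9 CPM, was highest where rod markers were highest. Bipolar (2185 CPM), Mueller glia (1163 CPM) and microglia sums (146 CPM) were highest there too. Both Kcnk3 and the rod sum were higher in replicate 2 of wild-type P4. But in Kir2.1 P4 Kcnk3 was highest in replicate 3 (11.6 CPM) and the rod sum in replicate 2 (552 CPM). For Kir2.1 P8 these were replicate 1 (34.2 CPM) and replicate 3 (5156 CPM). In Kir2.1 P8 the amacrine sum was 1580, 924 and 1669 CPM, and Kcnk2, Kcnn2, Hcn2 and Hcn4 all had their lowest library in replicate 2, where it was lowest. Kcnk1 (12.9 CPM) and Kcnk3 (24.6 CPM) were lowest there too, in the library with the fewest counts and the largest share of records outside genes (79.8% against 74.6% to 76.8%). The highest Kcnk2 library of Kir2.1 P8 was replicate 1, not replicate 3, where the amacrine sum was highest. In Kir2.1 P4 the amacrine sum was 1611, 1691 and 1900 CPM, and Kcnk2, Hcn2 and Hcn4 were lowest in replicate 2, where it was not lowest. The part of these markers in the channel values was not tested.
With age, rod markers were called higher in 8 of 8 genes (averaged median log2 change 2.89). Bipolar markers were higher in 8 of 8, with 7 called (3.21). Dividing-cell markers were called lower in 6 of 6 (-4.38) and ganglion cell markers in 9 of 10 (-2.02), while the tenth was called higher. Cone markers were higher in 6 of 6, with 4 called (0.67 over the list), and microglia markers lower in 6 of 6, with 5 called (-0.96). Amacrine markers split, with 1 called higher and 2 lower of 8. At P4 the ganglion sum was 1517 and 1067 CPM in wild type and 729, 302 and 805 CPM in Kir2.1, lower in 10 of 10 genes with none called (median -1.32). Also lower at P4 were 4 of 4 horizontal (median -0.76), 6 of 8 bipolar (-1.10) and 5 of 6 vascular markers (-0.71). The same held for 6 of 8 rod (-0.33) and 6 of 8 amacrine markers (-0.23). Higher were 6 of 6 dividing-cell (0.31), 6 of 6 microglia (0.33) and 5 of 6 Mueller glia markers (0.29). None of these genes was called. The mean vascular sum went the other way (586 CPM in Kir2.1, 485 in wild type), and the bipolar sums were close (458 and 472 CPM). Wild-type P4 replicate 2, which was high in Kcnma1, Kcnk3 and Kcnn2, also had the highest rod sum (918 CPM against 163 to 552) and the lowest dividing-cell sum (841 CPM against 1898 to 2439) of the P4 libraries. The part of these markers in the age and genotype differences was not tested.

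**Figure D5:**
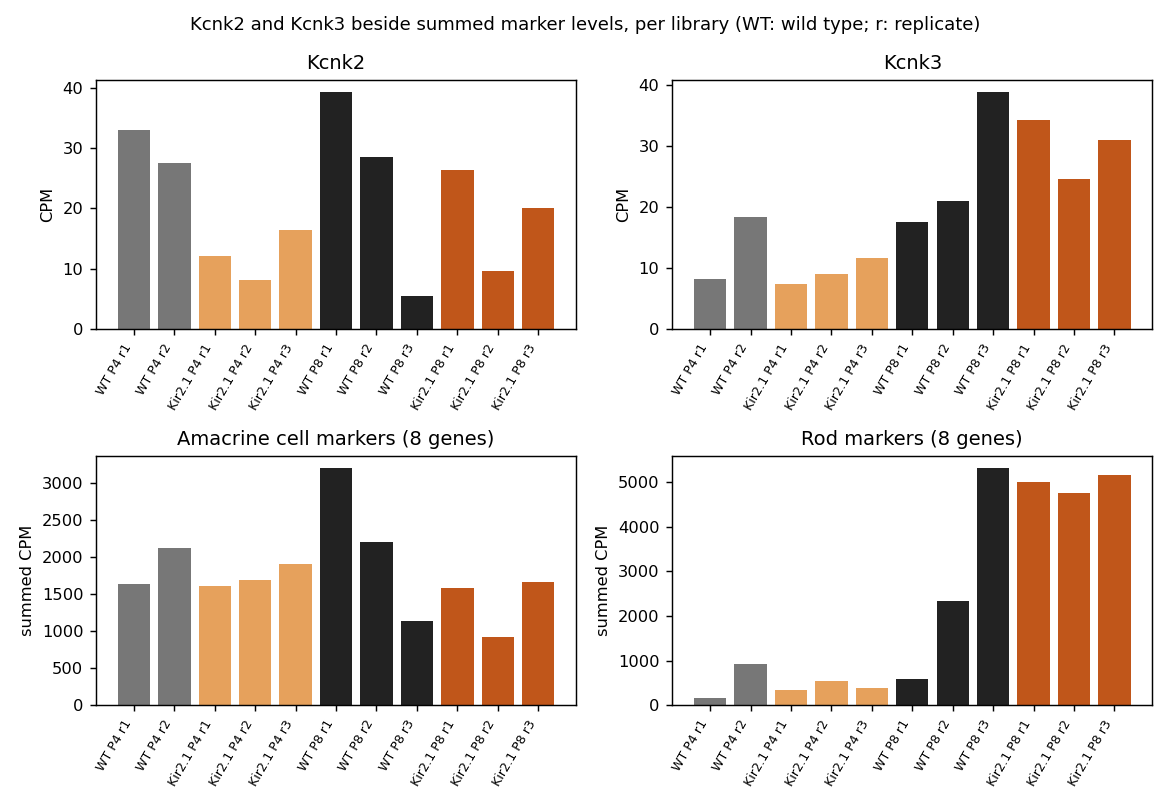
Levels of Kcnk2 and Kcnk3 (upper bars, CPM) and summed levels of 8 amacrine and 8 rod markers (lower bars, summed CPM) in each of the 11 libraries. In wild-type P8, Kcnk2 and the amacrine sum are highest in replicate 1 and lowest in replicate 3, and Kcnk3 and the rod sum the reverse.

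Among 29 other channels and partners of the same families, 22 had enough counts to be tested. Between the ages 4 rose and 1 fell when averaged over genotypes (5 of 22, beside the 22.8% of all genes), 4 rose in Kir2.1 (4 of 22, beside 16.7%, and 2 to 3 with any 1 Kir2.1 library left out) and 0 were called in wild type or in any comparison of genotypes. At unadjusted p under 0.05 there were 5 of 22 in wild type (19.6% of all genes), and for genotype 2 at P4 (7.22%), 3 at P8 (6.82%) and 3 averaged (11.7%). DESeq2 and voom each called 2 in wild type and 0 for genotype. With no filter on low counts 3 were called in wild type, and for genotype 2 at P8 and 4 averaged.
Pex5l, the TRIP8b subunit that controls HCN trafficking, rose by 1.65 ± 0.27 (adjusted p = 0.00123), and Hcn3 by 0.52 ± 0.17 (adjusted p = 0.0439). Unc80, a subunit of the NALCN sodium leak channel, rose by 0.96 ± 0.16 (adjusted p = 0.00127), from 130 and 245 CPM in wild-type P4 and 171 to 175 CPM in Kir2.1 P4 to 246, 337 and 368 CPM in wild-type P8 and 330 to 434 CPM in Kir2.1 P8. No P8 library of Unc80 was below a P4 library. Lrrc55, an auxiliary subunit of BK, fell by 0.995 (SE 0.33, adjusted p = 0.0491). The Hcn3 call was lost without any 1 of 9 libraries and the Lrrc55 call without any 1 of 8. Both calls were also lost with the replicate number as a block. The 5 related two-pore genes tested gave none. Hcn3 shares exon bases with the antisense gene Pklr. In the authors' deposited tables, Unc80 was called at P4 (-0.59), and at P8 Kcnt1 (-0.86), Nalcn (-0.72), Unc79 (-0.56) and Tmem28 (-1.26) were called lower and Pex5l (0.93) higher.

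For each member called with age, the 2 genes with the nearest profile over the 11 libraries were found among 15993 genes, by the root mean square difference of centred log2 CPM. Nearest to Kcnma1 (own SD 1.02) were Epha7 (0.18) and Prox1 (0.18). Nearest to Kcnk3 (SD 0.84) were Aldoc (0.19) and Gnb5 (0.21), and nearest to Kcnk10 (SD 1.24) were Kitl (0.29) and Dcx (0.32). Nearest to Kcnn2 (SD 0.47) were Lrtm2 (0.13) and Pacsin1 (0.15), and nearest to Kcnk1 (SD 0.46) were Rgs2 (0.15) and Stx4a (0.18). The median difference over all the genes compared was 0.55 for Kcnk1 and Kcnn2, 0.86 for Kcnk3, 1.01 for Kcnma1 and 1.22 for Kcnk10.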

How the data were processed

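The authors deposited 1 table of whole-number counts per Ensembl gene for each library, and 1 table per age of their own comparison. Per the file headers, the authors' tables hold a mean normalized count (a signal in their scaling), the log2 fold change and its error, their quotient (a score), and p-values before and after adjustment. The submitters' processing notes name, with no role or order, cutadapt 1.18, SAMtools 1.9, bedtools 2.26.0, STAR 2.5.0c, HTSeq 0.6.1, DESeq2 and genome build mm10. The annotation and strand setting are not given in the sources used here.

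Records outside genes (74.6% to 79.8% per library) were left out. Of the 47069 genes, 18188 passed filterByExpr. Counts were scaled by TMM and fitted with edgeR 4.0.16 in R 4.3.3, as a quasi-likelihood model of 4 group means over the 11 libraries, with 7 contrasts and p-values adjusted by Benjamini-Hochberg over all genes tested. The standard error is the log2 fold change over the square root of F, and 95% intervals use the residual (7) and prior (5.05) degrees of freedom. CPM are counts over TMM-scaled library sizes. RPKM divide these by merged exon length in GENCODE M21 (GRCm38), which also gave coordinates. The members and lists were chosen with earlier results of these data known. The named related genes are those called in any contrast, apart from 1 that is not reported here, and the nearest profiles required a mean of at least 1 CPM. The scripts were tested on simulated data. Alternatives were DESeq2 1.42.0 size factors and test, limma 3.58.1 voom with sample quality weights, other filters, a replicate block, the compared groups alone, each library left out, and 2 libraries left out together, the last chosen after seeing the data. Same-numbered libraries did not deviate together (correlations -0.08 to 0.14, 15 pairs), so replicate numbers were not used as pairs.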

Additional observations from a re-analysis of the deposited data

How the results depend on the processing

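Of 1035 combinations of a member's fold change and an alternative, 945 kept direction and side of the threshold, 50 reversed, 22 lost and 18 gained a call. The averaged age calls of Kcnma1, Kcnk3 and Kcnk10 were kept in every alternative run. Where a value moved, the cause was not tested, apart from the fewer libraries or the other genes that an alternative holds by construction. The number of members called was 5 for age averaged over genotypes and 3 to 5 when libraries were left out 1 at a time. In wild type it was 1 for age, 2 with the DESeq2 test, 2 with voom, 4 with no filter, 0 with the replicate block, 0 with only the groups compared, 4 without wild-type P4 replicate 2 and wild-type P8 replicate 3 together, and 0 to 2 leaving out 1. In Kir2.1 it was 4, 3 to 4 leaving out 1, and 5 with no filter, with only the groups compared and without the 2 libraries together, where Kcnn2 was added. For genotype it was 0, with 2 under no filter and 0 to 1 leaving out 1 library, both at P4 and averaged. The number of all genes called rose with no filter from 0 to 339 at P4, 447 at P8 and 901 averaged, and from 798 to 2058 for age in wild type, which was 113 with only the groups compared and 1580 by DESeq2. For the difference of effects it rose from 0 to 136. Leaving out 1 library gave 0 to 6 genes at P4, 0 to 219 at P8 (534 without the 2 libraries together), 0 to 609 for genotype averaged (141), 163 to 1339 for age in wild type (1711), 1764 to 2169 in Kir2.1 (3029 with all) and 2133 to 4417 for age averaged (4140 with all). Related channels called were 2 to 6 for age averaged and 0 to 3 for age in wild type leaving out 1, and 1 for genotype at P8 without the 2 libraries together.

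Under the replicate block, the Kcnn2 age call was lost (0.60, adjusted p = 0.0738), as were that of Kcnk10 in wild type (-1.99, adjusted p = 0.0524), Hcn3 (0.52, adjusted p = 0.0822) and Lrrc55 (-0.997, adjusted p = 0.0724), and the Kcnk9 difference between ages in the Kir2.1 effect turned to 0.17.

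Reversals outside single left-out libraries were these. Voom gave Kcnk1 at P4 -0.0205, Kcnk3 for genotype averaged 0.0275, Kcnk9 for age in wild type 0.0985 and averaged 0.0122. No filter gave Kcnk1 at P4 -0.00332. Without the 2 libraries together, genotype at P4 was -0.07 for Kcnk1, 0.18 for Kcnk3, 0.06 for Kcnk9, 0.15 for Kcnn2 and 0.29 for Kcnma1, genotype averaged was 0.41 for Kcnk3, the difference of effects was -0.62 for Kcnma1, and age in wild type was 0.0346 for Kcnk2 and 0.0305 for Kcnk9. There, with no change of direction, the difference of effects was -0.742 for Kcnn2 and -0.570 for Hcn4, and the Hcn4 age difference 0.677 in wild type and 0.392 averaged.

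Leaving out 1 library crossed 0 in these ranges. For genotype at P4 they were -0.142 to 0.0790 (Kcnk1), -0.98 to 0.19 (Kcnk3), -0.47 to 0.37 (Kcnk9), -0.54 to 0.15 (Kcnn2) and -1.40 to 0.30 (Kcnma1). At P8 they were -0.85 to 0.14 (Kcnk2) and -0.00105 to 0.63 (Kcnk3), and averaged -0.38 to 0.20 (Kcnk3), -0.36 to 0.0582 (Kcnk9) and -0.83 to 0.0161 (Kcnma1). For the difference of effects they were -0.63 to 0.22 (Kcnk9), -0.62 to 0.24 (Kcnk10), -0.51 to 0.19 (Kcnn2), -0.56 to 1.14 (Kcnma1), -0.24 to 0.14 (Hcn2) and -0.47 to 0.17 (Hcn4). For age they were -0.85 to 0.16 (Kcnk2), -0.24 to 0.16 (Kcnk9) and -0.0847 to 0.57 (Hcn4) in wild type, -0.69 to 0.17 (Kcnk9) and -0.0503 to 0.30 (Hcn4) in Kir2.1, and -0.12 to 0.40 (Kcnk2), -0.37 to 0.0627 (Kcnk9) and -0.00138 to 0.34 (Hcn4) averaged.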
